A study of Mus musculus with 4 samples.

Results

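Mammals have 7 sirtuins, *Sirt1* to *Sirt7*, enzymes that remove acetyl and related acyl groups from proteins and use up NAD+ with each reaction. *Sirt3*, *Sirt4* and *Sirt5* act inside mitochondria, whereas *Sirt1*, *Sirt6* and *Sirt7* are mainly nuclear and *Sirt2* is mainly cytosolic. Because each reaction releases nicotinamide, cells rebuild NAD+ by salvage: *Nampt* makes nicotinamide mononucleotide from nicotinamide, and *Nmnat1* turns this into NAD+ in the nucleus. *Nadk2* phosphorylates NAD+ to NADP+ in the mitochondrion, where NADPH serves antioxidant and biosynthetic reactions. Sirtuins link NAD+ supply to acetylation, and in mitochondria they act on enzymes of fuel oxidation and on antioxidant enzymes. The 7 sirtuins together with *Nampt*, *Nmnat1* and *Nadk2* were picked by gene name, with earlier results of these data known, and make 10 of the 20197 genes in the expression table.

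The values come from 4T1, a mouse mammary carcinoma line used as a model of metastatic breast cancer, wild type in genotype and untreated apart from the dye. MitoSpy Red, which gathers preferentially in mitochondria of high membrane potential (MMP), was applied at 20 nM. The top 5% and bottom 5% of cells by dye signal were collected as the high MMP and low MMP groups. From 100000 sorted cells per sample, 200 ng of RNA went into each of 4 stranded mRNA libraries, 2 per group. All 4 came from 1 line grown in culture, without unsorted or intermediate cells, so each group stands for an extreme of the dye signal. The question for these genes is whether the cells at the 2 extremes differ in their sirtuin and NAD+ enzyme mRNAs.

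The libraries held 22591970 to 26395015 counted reads and 18643 to 18854 genes above 0. Values are normalized reads, that is, counted reads scaled to a total of 20000000 in each library, so that 1 read was worth 0.758 to 0.885 in the 4 libraries. All 5 mammary epithelial markers examined were present, with 36188 to 48361 summed normalized reads in the high and 42071 to 48152 in the low MMP libraries. Of 5 leukocyte markers only *Ptprc* was in the table, at no more than 2 reads in a library. The 2 endothelial markers in the table summed to at most 6.20 normalized reads. Mitochondrially encoded mRNAs took 1.27% of reads in high MMP replicate 1 and 2.02% to 2.24% in the other libraries. The high MMP replicates were farther from each other than the low MMP replicates, with a chi-square per gene of 43.2 against 9.08. The study counts its samples as independent experiments, but no source says which libraries came from the same sort.

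All 10 genes were read in all 4 libraries, from 75 reads for *Sirt4* in high MMP replicate 2 to 3253 for *Nampt* in high MMP replicate 1. To compare genes with each other, values were divided by the length of the longest protein-coding transcript and given as RPKM, reads relative to both transcript length in kilobases and the library's counted reads. On this scale *Nampt* stood highest at 27.4 over the 4 libraries (lowest 24.3, highest 29.8), apart from every other member. *Sirt2* at 16.2, *Sirt1* at 15.3, *Nadk2* at 14.1, *Sirt7* at 13.2 and *Sirt6* at 13.0 followed, and within this run the range of each gene overlapped that of the next. *Sirt6* was 2.63 times as high as the next gene, *Sirt3*. The mitochondrial sirtuins had the lowest levels of the family, *Sirt3* at 4.93, *Sirt5* at 3.44 and *Sirt4* at 2.12, and the ranges of these 3 did not overlap with each other. *Nmnat1* was lowest at 1.79, and its range of 1.51 to 2.05 overlapped that of *Sirt4*, 1.75 to 2.62. Among the 19993 genes with an annotated length, the level of *Nmnat1* stood at percentile 47.9 and that of *Nampt* at percentile 85.3, with the other members between them.

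The order within the family depended on the length used. Dividing by all annotated exons joined, which for *Sirt3* are 5973 bases against 1606 in its longest transcript, placed *Sirt3* last at 1.32 instead of above *Sirt5* (1.37) and *Sirt4* (1.58), with overlapping ranges among these 3 and *Nmnat1* (1.56). *Sirt2* then came to 6.80 and *Sirt7* to 4.43, below *Sirt1* at 12.7, *Nadk2* at 10.3 and *Sirt6* at 8.80. *Nampt* was highest on either length, and the mitochondrial sirtuins with *Nmnat1* were the lowest 4.

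**Figure D1:**
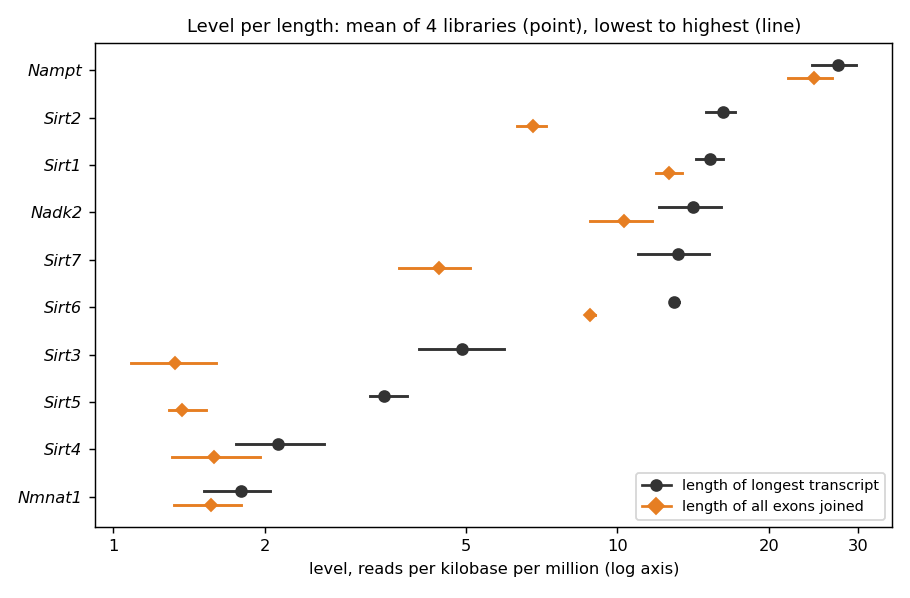
Level of each gene in RPKM (log axis), as the mean of the 4 libraries (point) with the lowest and highest library (line), for 2 definitions of gene length. *Nampt* is highest with either length, at 27.4 and 24.5, and *Sirt3*, *Sirt4*, *Sirt5* and *Nmnat1* form the lowest 4, with *Sirt3* moving from 4.93 to 1.32 when all exons are joined.

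On the log2 scale the mean was lower in high MMP cells for 7 of the 10 genes, beside 58.6% of all genes. None passed the test across all genes, whose smallest adjusted p was 0.472, a value that several genes shared. Among only genes with a mean of at least 1 normalized read, the smallest limma adjusted p was 0.0511, still without a call. For *Sirt7* the adjusted p was 0.526 in that fit. For 6 of the 10 genes, *Sirt1*, *Sirt3*, *Sirt4*, *Sirt7*, *Nampt* and *Nadk2*, both high MMP values lay below both low MMP values. This was so for 24.5% of all genes. For none of the 10 did both lie above, beside 13.5% of all genes. Differences below are high minus low MMP on the log2(normalized reads + 1) scale, with the standard error (SE) and Benjamini-Hochberg adjusted p from limma, and normalized reads are given as mean ± SD with n = 2 libraries per group. In sorted bulk samples, fewer cells of a kind and less RNA per cell cannot be told apart.

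Of the mitochondrial sirtuins, *Sirt3*, the main mitochondrial deacetylase, lies at chr7:140863666-140882309 on the minus strand (GRCm38). Its normalized reads were 130 and 155 in the high MMP replicates 1 and 2 and 191 and 158 in the low MMP replicates 1 and 2. The high values were both below the low values, but the nearest pair, both replicate 2, was only 2.77 normalized reads apart. The means were 142 ± 17.8 and 174 ± 23.6, a difference of -0.29 (SE 0.17, adjusted p = 0.699), about the size of the gaps between replicates of one group, 0.25 and 0.28. Annotated exons of *Sirt3* share 418 bases with *Ric8a* and 342 with *Psmd13* on the opposite strand, and no source used here says whether strand was used in counting, so part of these reads cannot be assigned with certainty. *Ric8a* had 1307 to 1611 reads and *Psmd13* 2520 to 3712, against 171 to 219 for *Sirt3*.

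*Sirt4* encodes a mitochondrial sirtuin known for lipoamidase and ADP-ribosyltransferase activity and lies at chr5:115478010-115484725 on the minus strand. It had 71.2 and 62.8 normalized reads in high MMP cells and 75.8 and 93.8 in low MMP cells. The groups did not overlap, by 4.62 normalized reads, and low MMP replicate 2 stood above the other 3 libraries. From means of 67.0 ± 5.98 and 84.8 ± 12.7 the difference was -0.33 (SE 0.19, adjusted p = 0.697), and the 95% interval from -0.86 to 0.20 was among the widest of the 10 genes. With 75 to 106 reads per library, counting error alone gives an SE of 0.15 for this gene.

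The mitochondrial desuccinylase and demalonylase *Sirt5*, at chr13:43365496-43395203 on the plus strand, gave 186 and 157 normalized reads in high MMP and 167 and 157 in low MMP cells. The groups overlapped, with replicate 2 of each group at nearly the same value. Their means of 171 ± 20.0 and 162 ± 7.56 differed by 0.08 (SE 0.14, adjusted p = 0.940). The 95% interval of the difference ran from -0.31 to 0.46, so these values are compatible with a true difference of either sign within that range.

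**Figure D2:**
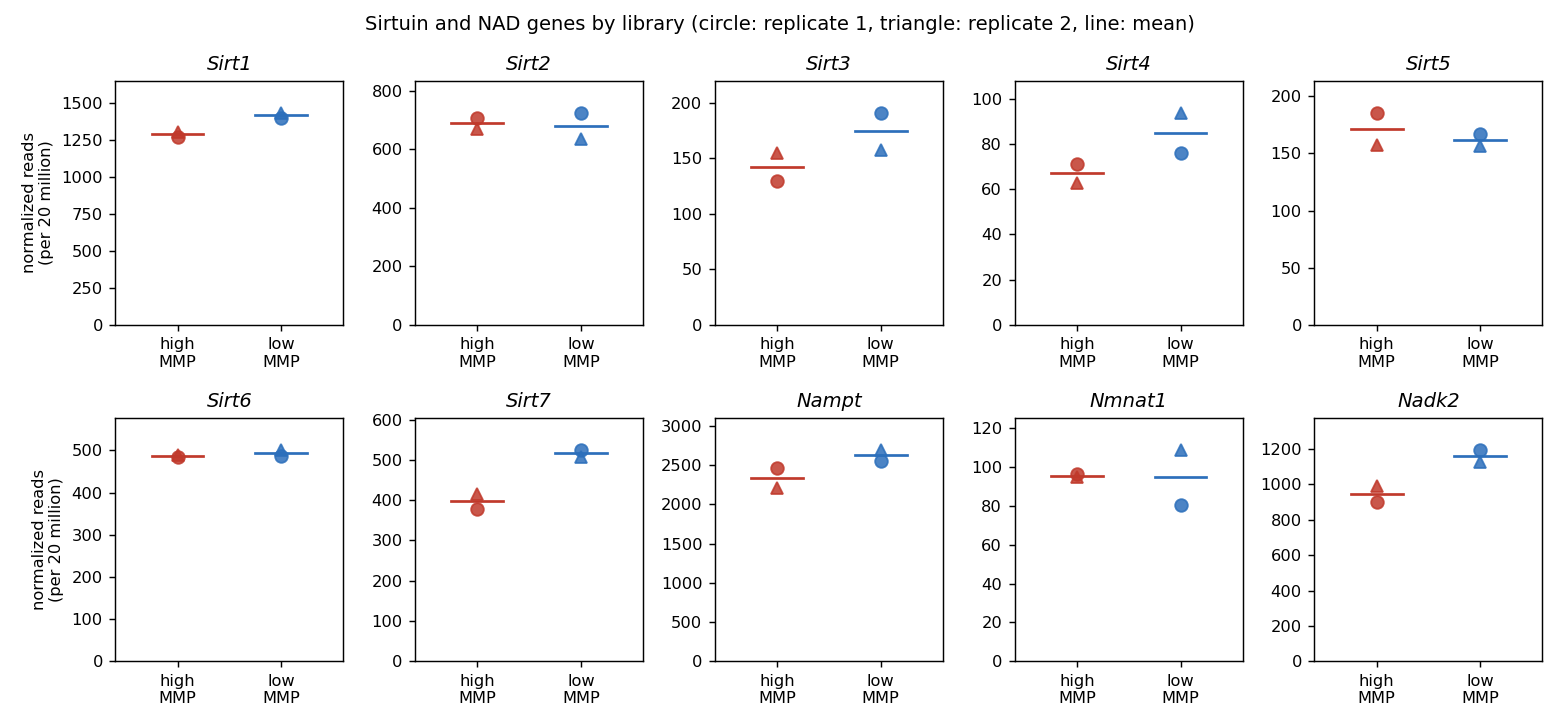
Normalized reads of each gene in the 4 libraries (vertical axis from 0, libraries scaled to the same total), with high MMP in red, low MMP in blue, circles for replicate 1, triangles for replicate 2 and a line for the group mean. Both red points lie below both blue points for *Sirt1*, *Sirt3*, *Sirt4*, *Sirt7*, *Nampt* and *Nadk2*, by 2.77 normalized reads for *Sirt3* and 91.3 for *Sirt7*. The same order of the groups held for 24.5% of all genes.

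Outside the mitochondrion, *Sirt7* differed most. This nucleolar deacetylase, linked to ribosomal RNA transcription, is encoded at chr11:120618372-120625240 on the minus strand. Its values were 379 and 415 in high MMP and 526 and 506 in low MMP cells. The high values were below the low values by at least 91.3 normalized reads, a wider gap than that between the replicates of either group. With means of 397 ± 25.6 and 516 ± 13.6, high MMP cells had 0.769 times the low MMP level (95% interval 0.643 to 0.920), a log2 difference of -0.38 (SE 0.10). The unadjusted limma p was 0.0148 and the adjusted p 0.472, so the difference did not pass over all genes. With same-numbered libraries treated as pairs, the unadjusted limma p was 0.0572. *Sirt7* shares 124 exonic bases with *Mafg* on the same strand, and *Mafg* had 3930 to 4330 reads against 496 to 603 for *Sirt7*, so that reads in the shared stretch are uncertain between the 2 genes.

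*Sirt1*, the nuclear deacetylase of p53, NF-κB and other transcription factors, lies at chr10:63319005-63381704 on the minus strand. It had the most even replicates among the genes whose groups did not overlap, with 1271 and 1302 normalized reads in high and 1401 and 1433 in low MMP cells. The 2 high values lay 98.8 normalized reads or more below the low ones. From 1287 ± 21.7 and 1417 ± 22.9 the difference was -0.14 (SE 0.07, adjusted p = 0.664), while replicates of one group were 0.03 apart in each group.

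The tubulin deacetylase *Sirt2*, at chr7:28766735-28788661 on the plus strand, had 708 and 671 normalized reads in high MMP and 725 and 636 in low MMP cells. The low MMP replicates were the highest and the lowest of the 4, so the groups overlapped. Mean values of 689 ± 25.9 and 680 ± 63.4 gave a difference of 0.02 (SE 0.10, adjusted p = 0.994), with a 95% interval from -0.26 to 0.30.

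*Sirt6*, a chromatin-bound histone deacetylase with roles in DNA repair and glycolytic gene control, is encoded at chr10:81621785-81627797 on the minus strand. Its values were the closest of the family, 485 and 488 in high MMP and 486 and 502 in low MMP cells, with overlapping groups. The means of 486 ± 2.07 and 494 ± 11.0 differed by -0.02 (SE 0.08, adjusted p = 0.981), a sign that turned under other scalings of the libraries, and the 95% interval ran from -0.25 to 0.20.

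Among the NAD+ enzymes, *Nampt*, the rate-limiting enzyme of salvage from nicotinamide, lies at chr12:32819545-32853349 on the plus strand. It was read at 2465 and 2202 normalized reads in high MMP and 2547 and 2696 in low MMP cells. The high values were lower in both replicates, by at least 82.4 normalized reads, but the high MMP replicates were themselves 0.16 apart on the log2 scale. The means were 2333 ± 186 and 2621 ± 105, and the difference was -0.17 (SE 0.10, adjusted p = 0.690).

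*Nmnat1*, at chr4:149467572-149485202 on the minus strand, had 96.2 and 94.6 normalized reads in high MMP and 80.2 and 109 in low MMP cells. Both high values lay between the low MMP replicates, which were 0.44 apart on the log2 scale. Means of 95.4 ± 1.18 and 94.5 ± 20.3 gave a difference of 0.03 (SE 0.20, adjusted p = 0.994), and the 95% interval from -0.53 to 0.59 leaves this gene, with 92 to 127 reads per library, the least precisely measured of the 10.

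*Nadk2*, the mitochondrial NAD kinase, is encoded at chr15:9071260-9110891 on the plus strand. Its values were 902 and 992 in high MMP and 1196 and 1125 in low MMP cells. Every high value was below every low value, by at least 133 normalized reads. The means were 947 ± 64.2 and 1161 ± 50.1, a ratio of 0.816 (95% interval 0.686 to 0.969) and a log2 difference of -0.29 (SE 0.09). As for *Sirt7*, the unadjusted limma p was low at 0.0300, while the adjusted p was 0.472. The unadjusted limma p of *Nadk2* was 0.0916 without the variance trend and 0.0960 with same-numbered libraries treated as pairs.

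**Figure D3:**
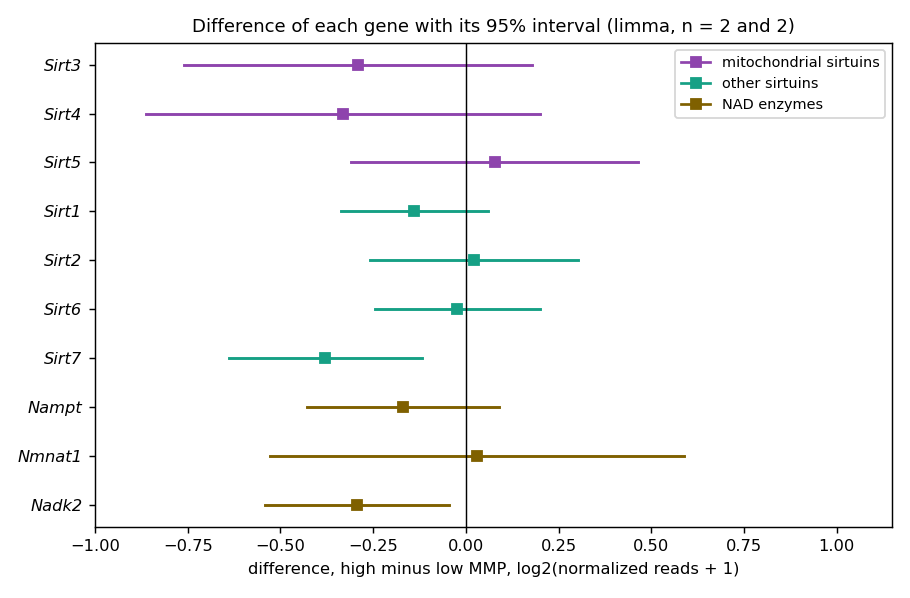
Difference of each gene, high minus low MMP on the log2(normalized reads + 1) scale (square), with its 95% interval from limma (line), coloured by role. Only the intervals of *Sirt7* (-0.64 to -0.12) and *Nadk2* (-0.54 to -0.05) lie wholly below 0, before any adjustment for the 20197 genes tested.

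Counted over the 10 genes, 7 differences were below 0 and 3 above, with a median of -0.15, beside 58.6% below 0 and a median of -0.04 over all genes. No member was called at an adjusted p under 0.05, nor was any other gene (0 of 20197, 0.0%). At an unadjusted p under 0.05 the members held 2 genes lower in high MMP cells (*Sirt7* and *Nadk2*) and 0 higher, beside 6.01% of all genes lower and 3.95% higher. edgeR's quasi-likelihood test on the recovered reads called 0 genes and gave the same 2 members an unadjusted p under 0.05. DESeq2 called 118 genes, none of them a member, and gave no member an unadjusted p under 0.05. Under quantile normalization the genes of unadjusted p under 0.05 were 50.7% higher in high MMP, against 39.7% as reported here, with the same 2 members among them.

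Both high MMP values lay below both low MMP values for 6 of the 10 members, beside 24.5% of all genes, and above for 0, beside 13.5%. Among the more strongly read genes, averaging 50 normalized reads or more and including all 10 members, these shares were 23.1% and 14.8%. Rescaling by median of ratios left 5 of 10 members below, beside 21.0% of all genes, and quantile normalization also 5, beside 16.9%, with *Sirt3* the gene that dropped out each time. The summed normalized reads of the 10 genes were 6692 and 6540 in high MMP and 7396 and 7415 in low MMP cells, and *Nampt* and *Sirt1* make up much of these sums. The replicates had no common order, since 5 of the 10 genes were lower in replicate 1 than in replicate 2 of the high MMP group, and 5 of 10 in the low MMP group.

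Cell cycle genes were also ordered by group in these libraries. Of 54 G2/M phase genes, 45 had both high values above both low values, beside the 13.5% of all genes, and the median difference was 0.32. Of 43 S phase genes, 31 had both high values below both low values, beside 24.5%, with a median of -0.33. *Pdgfra*, a mesenchymal receptor gene used as a fibroblast marker, had 319 and 363 normalized reads in high MMP and 536 and 589 in low MMP cells (difference -0.72, SE 0.11, adjusted p = 0.472), and the 3 of 4 fibroblast markers in the table summed to 334 to 374 against 548 to 604. *Pdgfrb* and *Dcn* had at most 12 reads in a library. Of the 5 epithelial markers, *Krt8*, *Krt18* and *Epcam* overlapped between the groups, *Cdh1* had both high values below the low ones, 3903 and 4726 against 5421 and 5426 (difference -0.34, SE 0.12, adjusted p = 0.498), and *Krt14* had both above, 1368 and 1529 against 1226 and 1100.4 (difference 0.32, SE 0.10, adjusted p = 0.472). The part of cell cycle phase, of these marker differences or of the mitochondrial mRNA share in the sirtuin and NAD+ gene differences was not tested.

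The mitochondrial sirtuins were then set against the other 4. The mean log2 value of *Sirt3*, *Sirt4* and *Sirt5* was 6.92 and 6.86 in high MMP and 7.08 and 7.06 in low MMP cells, and that of *Sirt1*, *Sirt2*, *Sirt6* and *Sirt7* was 9.32 and 9.34 against 9.48 and 9.44. Both means were lower in the high MMP libraries, by a similar amount, -0.18 for the mitochondrial and -0.13 for the other sirtuins. The mitochondrial mean minus the other mean was -2.40 and -2.48 in high MMP and -2.40 and -2.38 in low MMP cells. High MMP replicate 1 was thus, to 2 decimals, at the value of low MMP replicate 1, and high MMP replicate 2 lay lower. The group difference of -0.05 was close to the SD of 0.04 between replicates, and it depended on single genes: without *Sirt4* it was 0.02, without *Sirt5* -0.18. On the longest-transcript length, mitochondrial sirtuins made up 15.2% and 15.0% of the summed sirtuin RPKM in high MMP cells. They made up 15.9% and 15.4% in low MMP cells. This share was not computed on the length of all exons joined.

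**Figure D4:**
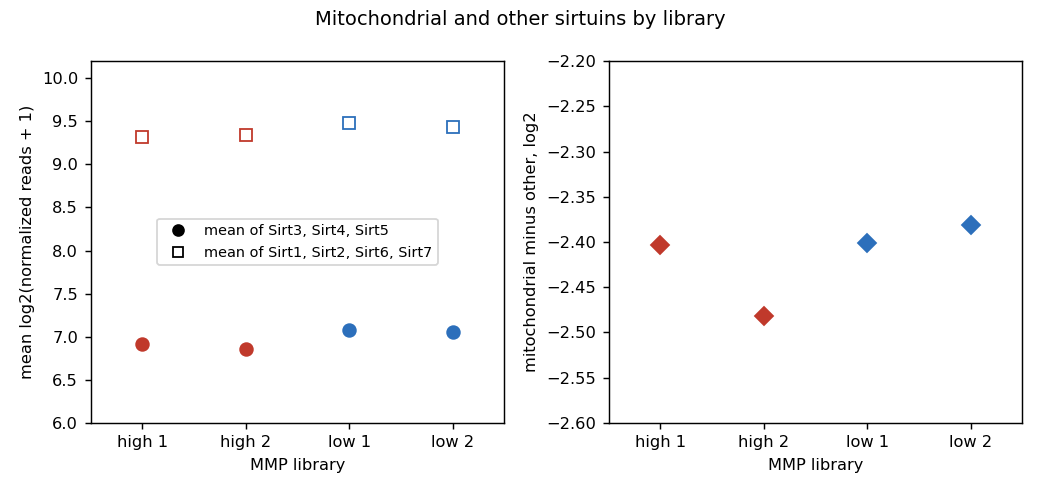
Left, mean log2(normalized reads + 1) of the 3 mitochondrial sirtuins (circles) and of the 4 other sirtuins (squares) in each library; right, the first minus the second on an axis that does not start at 0. High MMP is red and low MMP blue. Both means are lower in red, and the difference between them, -2.40 and -2.48 against -2.40 and -2.38, leaves high MMP replicate 1 level with low MMP replicate 1.

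Spread within each class was wider than the distance between the classes. Differences ran from -0.33 (*Sirt4*) to 0.08 (*Sirt5*) among the mitochondrial sirtuins and from -0.38 (*Sirt7*) to 0.02 (*Sirt2*) among the others. Summed over all 7 sirtuins, normalized reads were 3229 and 3251 in high MMP and 3572 and 3485 in low MMP cells, with 4 of the 7 genes lower without overlap, beside 24.5% of all genes, and a median difference of -0.14, beside -0.04.

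Around these genes, 77 other genes of NAD+ metabolism and sirtuin biology were listed by role, of which 64 were in the table. None was called by limma, 3 were lower and 2 higher at an unadjusted p under 0.05 (6.01% and 3.95% of all genes), and the median difference was -0.05, beside -0.04 over all genes. Both high values lay below both low values for 16 of the 64 and above for 8, shares close to the 24.5% and 13.5% of all genes. The tallies of lower and higher genes in the lists that follow stand beside 58.6% lower over all genes.

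In salvage, with *Nampt* and *Nmnat1* counted in, 11 of 12 listed genes were in the table, 8 of them lower and 3 higher, with a median difference of -0.09. *Naprt*, which starts NAD+ synthesis from nicotinic acid, was low and uneven, at 9.85 and 24.3 normalized reads in high MMP and 22.7 and 31.0 in low MMP cells (difference -0.73, SE 0.51, adjusted p = 0.752). *Nmrk1*, the nicotinamide riboside kinase, had both high values above the low ones, 60.6 and 71.1 against 50.6 and 55.8 (difference 0.30, SE 0.19, adjusted p = 0.719). Unlike *Nmnat1*, the cytosolic and Golgi enzyme *Nmnat2* had both high values below the low ones, 233 and 205 against 269 and 259 (difference -0.27, SE 0.12, adjusted p = 0.574). *Nmnat3*, the mitochondrial enzyme of this step, had only 59 to 64 reads per library and a difference of -0.09, and NAD synthetase *Nadsyn1* differed by -0.06. *Slc5a8*, a transporter that carries nicotinate, had the only unadjusted p under 0.05 of the list (0.0461), but rested on 0 to 9 reads per library.

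Among NAD kinases, carriers and redox genes, with *Nadk2* counted in, 7 of 8 listed genes were in the table, 5 lower and 2 higher, with a median difference of -0.05. The cytosolic kinase *Nadk*, at a level of 97.3 RPKM against 14.1 for the mitochondrial *Nadk2*, had 6258 and 5916 normalized reads in high MMP and 6265 and 6109 in low MMP cells, and these differed by -0.02 (SE 0.09, adjusted p = 0.981). The groups overlapped for *Nadk*, whereas they did not for *Nadk2*. The test of a difference between the 2 kinases was not run. *Slc25a51*, the carrier that brings NAD+ into mitochondria, had 1256 and 1322 normalized reads in high MMP and 1522 and 1524 in low MMP cells. Its values were lower in both high MMP libraries, with a difference of -0.24 (SE 0.08), an unadjusted p of 0.0307 and an adjusted p of 0.472. *Nnt*, the transhydrogenase of the inner membrane, had only 12 to 18 reads per library and a difference of -0.05.

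All 17 listed NAD+-consuming enzymes were in the table, 12 lower and 5 higher, with a median of -0.08. *Parp1*, the main DNA damage poly(ADP-ribose) polymerase, had 5192 and 4501 normalized reads against 4973 and 4988 (difference -0.04), and *Parp2* 1090 and 1223 against 1366 and 1189 (difference -0.14), both with overlapping groups. *Parp16*, a mono-ADP-ribosyltransferase of the endoplasmic reticulum, was at 408 and 410 in high and 507 and 487 in low MMP cells (difference -0.28, SE 0.08, adjusted p = 0.472). The ectoenzyme *Bst1*, a relative of *Cd38* that cleaves NAD+, was the one gene of this list with an unadjusted p under 0.05 and a higher value in high MMP cells, 256 and 231 against 169 and 193 (difference 0.43, SE 0.13, unadjusted p = 0.0296, adjusted p = 0.472). *Sarm1*, the axonal NAD+ hydrolase, had 10 to 16 reads per library.

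**Figure D5:**
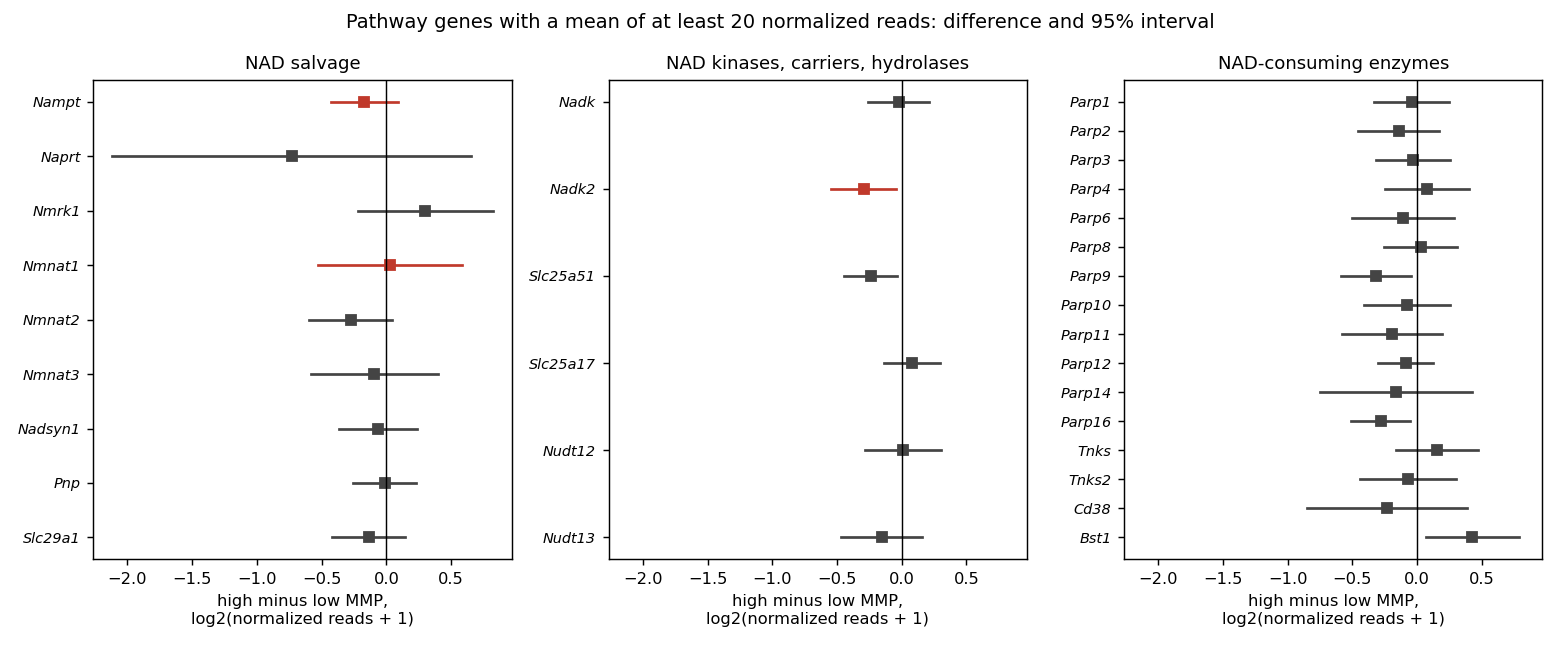
Difference, high minus low MMP on the log2(normalized reads + 1) scale (square), with its 95% interval from limma (line), for genes of 3 lists with a mean of at least 20 normalized reads, where red marks *Nampt*, *Nmnat1* and *Nadk2*. Most intervals cross 0, and those of *Nadk2*, *Slc25a51*, *Parp9* and *Parp16* lie below it and that of *Bst1* above it, none past adjustment over all genes.

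Other routes to and from NAD+ rested on few reads, apart from *Aox1*. Of 9 genes of synthesis from tryptophan only *Afmid* and *Ido2* were in the table, *Afmid* at 55 to 80 reads per library and *Ido2* at 0 to 2, and *Qprt* had no row. Of the 3 genes of nicotinamide clearance, the methyltransferase *Nnmt* had 1 to 5 reads and the oxidase *Aox1* 382 to 440, with a difference of -0.11 for *Aox1*.

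Among 4 regulators of SIRT1, 2 were lower and 2 higher. *Ccar2*, whose protein binds and inhibits SIRT1, had 1220 and 1310 normalized reads in high MMP and 1500 and 1419 in low MMP cells, without overlap (difference -0.21, SE 0.08, adjusted p = 0.549). This is the same direction as *Sirt1* itself (-0.14), from the same 4 libraries. *Hic1*, a repressor of *Sirt1*, had 0 to 5 reads.

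Enzymes that sirtuins deacylate were also unevenly placed, with 10 of the 16 in the table lower and 6 higher, a median of -0.02 and none with an unadjusted p under 0.05. *Sod2*, the mitochondrial superoxide dismutase, differed by 0.00 (SE 0.09, 95% interval -0.23 to 0.24), *Idh2* by -0.07 (SE 0.16) and *Glud1* by -0.03 (SE 0.09), all substrates of mitochondrial sirtuins with overlapping groups. *Acss2*, the nucleocytosolic acetyl-CoA synthetase that SIRT1 activates, was at 430 and 365 in high MMP and 472 and 485 in low MMP cells (difference -0.27, SE 0.12, adjusted p = 0.573). *Mlycd*, malonyl-CoA decarboxylase and a target of SIRT4, was lower in both high MMP libraries on few reads, 28 to 47 (difference -0.48, SE 0.27, adjusted p = 0.685). The list of sirtuin target factors and tubulin genes had 7 genes in the table, 3 lower and 4 higher. *Tubb2a* (0.38, adjusted p = 0.617) and *Rela* (0.08, adjusted p = 0.811) had the smallest p. Whether sirtuins act on the *Tubb2a* product was not examined.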

How the data were processed

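Sorted 4T1 cells were profiled by stranded mRNA sequencing over 75 cycles. Reads were aligned with STAR to GRCm38/mm10 and, per the submitters' processing notes, HTSeq was used; versions, annotation release and strand setting are not given in the sources used here. The deposited values are a signal in which the authors scaled gene counts to a total of 20000000 per library and kept genes above 0 in at least 2 of 4 samples. In each library 100% of values were whole multiples (tolerance 0.1 read) of 1 read, which gave the depths and the reads for count tests. Counts carry no molecular identifiers, so counting errors cover sampling only.

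Main test: limma 3.58.1 with variance trend in R 4.3.3 on log2(normalized reads + 1), which understates changes of low genes, over all 20197 genes, Benjamini-Hochberg threshold 0.05. Alternatives: the edgeR quasi-likelihood test (4.0.16) and DESeq2 (1.42.0), both on recovered reads, other pseudocounts, filters, scalings and left-out libraries. The fitting step was run on simulated data, where the check was that added changes came out with the right sign. How small a change the test can call in these libraries was not examined. Coordinates, lengths and overlaps come from the GENCODE annotation of GRCm38, which held 19993 of the 20197 identifiers.

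The 10 members and all lists were chosen with earlier results of these data known. Named besides the members are *Naprt*, *Nmrk1*, *Nmnat3*, *Nadsyn1*, *Nadk*, *Nnt*, *Slc25a51*, *Nnmt*, *Qprt*, *Parp1*, *Parp2*, *Sarm1*, *Ccar2*, *Acss2*, *Sod2*, *Idh2* and *Glud1* where in the table, and the 2 genes of smallest unadjusted p in each list. Cell cycle genes are the Seurat 5.3.0 lists. Likeness of pattern to other genes was not computed, since 4 samples are too few.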

Additional observations from a re-analysis of the deposited data

How the results depend on the processing

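None of the 10 genes was called in any of 18 alternatives, and *Sirt1*, *Sirt3*, *Sirt4*, *Sirt7*, *Nampt* and *Nadk2* kept a negative difference in all 18. *Sirt7* ran from -0.44 to -0.31 (adjusted p 0.0965 to 1.00), *Nadk2* from -0.36 to -0.22 (0.245 to 1.00), *Nampt* from -0.25 to -0.09, *Sirt1* from -0.16 to -0.10, *Sirt3* from -0.43 to -0.15 and *Sirt4* from -0.48 to -0.18. *Sirt6* turned to 0.0186 with median-of-ratios scaling, 0.0305 with quantile normalization, 0.0145 in edgeR, 0.0185 in DESeq2, 0.0145 in edgeR with crossed numbers and, under the replicate block, 0.0147 (edgeR) and 0.0186 (DESeq2). Leaving out 1 library moved *Sirt2* between -0.0736 and 0.12, turning its sign without high MMP replicate 1 or low MMP replicate 2. It moved *Sirt5* between -0.0415 and 0.20, turned without high MMP replicate 1, and *Nmnat1* between -0.19 and 0.25, turned without low MMP replicate 1. The count of members with both high values below the low ones ran from 6 to 8 when 1 library was left out, beside 38.2% to 42.7% of all genes. Mitochondrial minus other sirtuins ran from -0.09 to -0.01 without 1 library, and was 0.00282 without *Sirt3*, 0.0231 without *Sirt4*, -0.18 without *Sirt5*, -0.00128 without *Sirt2* and -0.13 without *Sirt7*. The causes were not tested.

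Over all genes, limma and edgeR without a block called 0 genes (2011 and 1423 at an unadjusted p under 0.05) and DESeq2 118. Same-numbered libraries did not deviate together. The correlation of their deviations was -0.189 across 17694 genes with a mean of at least 1 normalized read. It was -0.414 across 12902 genes with at least 10 and -0.565 across 9999 with at least 100. The main test did not treat these libraries as pairs, but so few libraries cannot show whether same-numbered ones shared a sort. With the replicate block limma called 0 (1055 unadjusted), edgeR 106 and DESeq2 32, no member had an unadjusted p under 0.05, and mitochondrial minus other sirtuins stayed at -0.05. Crossed numbers, tried after seeing the data, gave 0 calls in limma (2128 unadjusted) and 733 in edgeR, 2 of them (*Bst1* and *Tubb2a*) in the NAD+ and sirtuin lists.

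With 2 libraries per group, 95% intervals of the 10 differences ranged in width from that of *Sirt1* (-0.34 to 0.06) to that of *Nmnat1* (-0.53 to 0.59), and *Sirt4* and *Nmnat1*, with at most 127 reads, were the least precise. Leaving out 1 library leaves a lone sample assumed to vary like the other group. The exon-union length, the scalings of the overlap count and the crossed numbers were chosen after seeing the data.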
